A study of Rattus norvegicus with 8 samples.

Results

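Acetylcholine acts on the hippocampus through ligand-gated nicotinic receptors and G-protein-coupled muscarinic receptors. The genes of both families were examined in the RNAseq comparison of vehicle and corticosterone (CORT) in adrenalectomized (ADX) rats. The members are 10 listed genes, Chrna3, Chrna4, Chrna5, Chrna7, Chrnb2, Chrnb4, Chrm1, Chrm2, Chrm3 and Chrm4. They hold 12 of the 16266 transcript rows and 10 of the 13272 gene symbols in the deposited table. The list was selected by gene family and by the FPKM values of this same comparison, so the contrast of Chrna3 and Chrnb4 with the other subunits is a description and carries no test.

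Whole hippocampi came from 8 rats, 4 given vehicle (0.45% saline) and 4 given corticosterone-2-hydroxypropyl-beta-cyclodextrin at 0.75 mg/mL, each infused for 30 min at zeitgeber time (ZT) 2. The series title places the samples 2 h after the corticosterone, and the study's methods count this from the start of the infusion. Every rat in both groups had lost its adrenal glands, and had received corticosterone in its drinking saline during recovery until that was withdrawn before the experiment. The labels name Sprague-Dawley rats aged 3-4 months at ZT2, whereas the study's methods name younger Lister hooded rats, and the titles call the vehicle rats untreated. Levels are FPKM, that is fragments per kilobase of transcript scaled for the size of the library. The deposited table holds 1 such value for each group and none for a single rat, so no SD or SE can be given and no test between groups was run here. The test columns of the authors' own comparison were not used, so no difference below is set against the spread between rats. The depth of each library is unknown.

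Nicotinic receptors are pentamers that pass cations when acetylcholine binds. In the forebrain most are built from alpha4 and beta2 subunits or from alpha7 alone, whereas the pairing of alpha3 with beta4 is best known from the medial habenula and from autonomic ganglia. Muscarinic M1 and M3 receptors act through Gq/11 and phospholipase C, and M2 and M4 receptors through Gi/o. Cholinergic input reaches the hippocampus mainly from the medial septum and diagonal band.

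Chrna3 was far lower in the CORT group than in the vehicle group, and Chrnb4 was lower too. Their close neighbour Chrna5 differed by little, and the subunits typical of the forebrain, Chrna4, Chrnb2 and Chrna7, were at similar or higher levels in the CORT group. Among the muscarinic receptors Chrm4 was higher in the CORT group, while Chrm1, Chrm2 and Chrm3 differed by little. A row was counted as higher or lower when its log2 ratio, log2((CORT FPKM + 1)/(vehicle FPKM + 1)), was past 1.5-fold, 0.58 on the log2 scale. By this rule 2 member rows were higher in the CORT group, where 2.25% of all rows were, and 2 were lower, where 2.35% of all rows were. Among the rows with a mean under 5 FPKM, a group chosen after the values were seen, 3.96% were higher and 4.56% lower, and 7 of the member rows are in it. The members were chosen with this contrast in view, so nothing is read from these shares.

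Chrna5, Chrna3 and Chrnb4 lie side by side on chromosome 8, and Chrm4 had the largest muscarinic log2 ratio, so the promoter sequences of these 4 genes are shown. Each runs from 250 bases before to 50 bases after the gene start in RefSeq, assembly GRCr8, and is written 5′ to 3′ on the strand of the gene. All 10 members matched a RefSeq promoter by symbol. Capitals mark GC boxes, the letters GGGCGG or their reverse complement CCGCCC, to which Sp-family factors are known to bind.
Chrna5 (chr8:64265629-64265928, plus strand): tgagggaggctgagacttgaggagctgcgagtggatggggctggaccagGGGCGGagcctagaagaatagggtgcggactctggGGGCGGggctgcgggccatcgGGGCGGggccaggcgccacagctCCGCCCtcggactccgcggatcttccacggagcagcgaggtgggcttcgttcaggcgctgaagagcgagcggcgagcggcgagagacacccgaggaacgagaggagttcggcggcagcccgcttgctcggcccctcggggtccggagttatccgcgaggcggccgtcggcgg
Chrna3 (chr8:64311202-64311501, minus strand): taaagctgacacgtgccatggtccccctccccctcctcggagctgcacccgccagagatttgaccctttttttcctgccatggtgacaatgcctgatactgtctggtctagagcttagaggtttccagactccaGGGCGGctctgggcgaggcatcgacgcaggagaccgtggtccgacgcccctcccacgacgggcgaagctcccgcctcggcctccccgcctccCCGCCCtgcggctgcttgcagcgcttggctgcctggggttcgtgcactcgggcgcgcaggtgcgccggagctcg
Chrnb4 (chr8:64333060-64333359, minus strand): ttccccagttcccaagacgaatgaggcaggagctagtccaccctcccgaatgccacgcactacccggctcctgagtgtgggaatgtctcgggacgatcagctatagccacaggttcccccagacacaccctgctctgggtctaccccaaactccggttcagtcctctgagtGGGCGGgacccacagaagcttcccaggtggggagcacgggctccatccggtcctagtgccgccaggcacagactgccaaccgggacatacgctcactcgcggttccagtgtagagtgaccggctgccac
Chrm4 (chr3:98348830-98349129, plus strand): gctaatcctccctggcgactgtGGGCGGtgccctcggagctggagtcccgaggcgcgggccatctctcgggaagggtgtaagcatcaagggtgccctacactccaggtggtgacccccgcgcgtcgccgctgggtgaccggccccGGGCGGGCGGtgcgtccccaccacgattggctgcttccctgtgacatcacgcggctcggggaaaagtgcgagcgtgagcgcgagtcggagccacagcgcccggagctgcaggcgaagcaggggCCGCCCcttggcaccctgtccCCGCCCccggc

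Searched on both strands, with overlapping matches counted separately, the GC box was found 4 times in the Chrna5 promoter, 2 times in that of Chrna3, 1 time in that of Chrnb4 and 5 times in that of Chrm4. It was present in 9 of the 10 member promoters, all but that of Chrm1, and in 33.1% of all 33469 promoters of this length. The member promoters held between 57.7% and 74.7% G and C, against a median of 51.7% over all promoters. The hexamer AGAACA or its reverse complement TGTTCT, the core of the element bound by corticosteroid receptors, was found in 0 of the member promoters and in 20.7% of all promoters. The pair of these hexamers as an inverted repeat with a gap of 3 bases was found in 0 member promoters and in 5 of all promoters. The palindrome CACGTG, an E-box, was found in 2 member promoters, those of Chrna3 and Chrna7, and in 6.42% of all. These matches describe letters in a short window and do not locate binding sites.

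Chrna3 encodes the alpha3 subunit and lies at chr8:59593727-59607198 of rn6. Its level was 3.40 FPKM in the vehicle group, against 0.557 FPKM in the CORT group. The vehicle level was 6.10 times the CORT level, and the log2 ratio was -1.50. This was the 34th lowest log2 ratio of the 16266 rows. The vehicle level of Chrna3 was itself modest, since 73.8% of all rows had a higher vehicle FPKM.

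Chrnb4 encodes the beta4 subunit, the usual partner of alpha3, and lies at chr8:59609658-59629329 of rn6. It was at 1.35 FPKM with vehicle and 0.523 with CORT, so that the vehicle level was 2.58 times the CORT level. Its log2 ratio of -0.62 was close to the 1.5-fold limit. Without a pseudocount the log2 ratios were -2.61 for Chrna3 and -1.37 for Chrnb4. In the vehicle group the FPKM of Chrna3 was 2.52 times that of Chrnb4, and in the CORT group it was 1.06 times. Both CORT values were under 1 FPKM with no spread over rats, so little can be read from the second ratio.

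**Figure D1:**
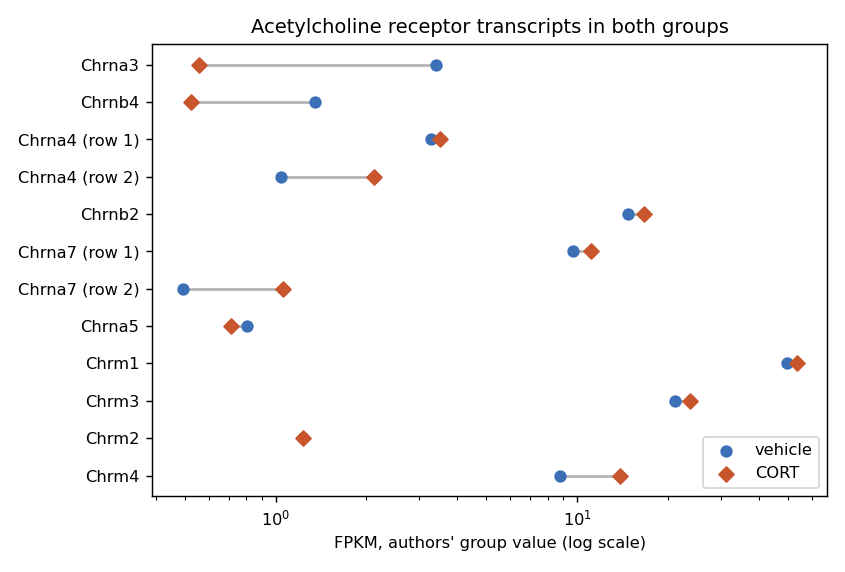
FPKM of the 12 receptor transcript rows on a log axis, with a circle for the vehicle group and a diamond for the CORT group, each the authors' single value for 4 rats with no error bar. Chrna3 and Chrnb4 lie to the left in the CORT group, at 0.557 and 0.523 FPKM, whereas Chrm1 and Chrm3 have the highest levels and nearly coinciding points.

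Chrna5, whose alpha5 subunit joins other subunits as an accessory and does not form receptors alone, lies at chr8:59561816-59590172 of rn6. It was at 0.801 FPKM with vehicle and 0.710 with CORT, a log2 ratio of -0.07. In the table its locus ends 3555 bases before that of Chrna3 begins, and that of Chrna3 ends 2460 bases before that of Chrnb4 begins. The 3 loci together span 67.5 kb. In the vehicle group the FPKM of Chrna3 was 4.24 times that of Chrna5, and in the CORT group, where both were under 1 FPKM, it was 0.784 times.

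The genes around the cluster had log2 ratios nearer to 0. Within 500 kb of the start of Chrna3, 12 other genes had 13 transcript rows, and their log2 ratios lay between -0.22 and 0.27. Psma4, a proteasome subunit and the nearest listed gene on the Chrna5 side, was at 117 FPKM with vehicle and 112 with CORT. Ube2q2, a ubiquitin-conjugating enzyme and the nearest listed gene on the Chrnb4 side, was at 17.7 and 17.6 FPKM.

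**Figure D2:**
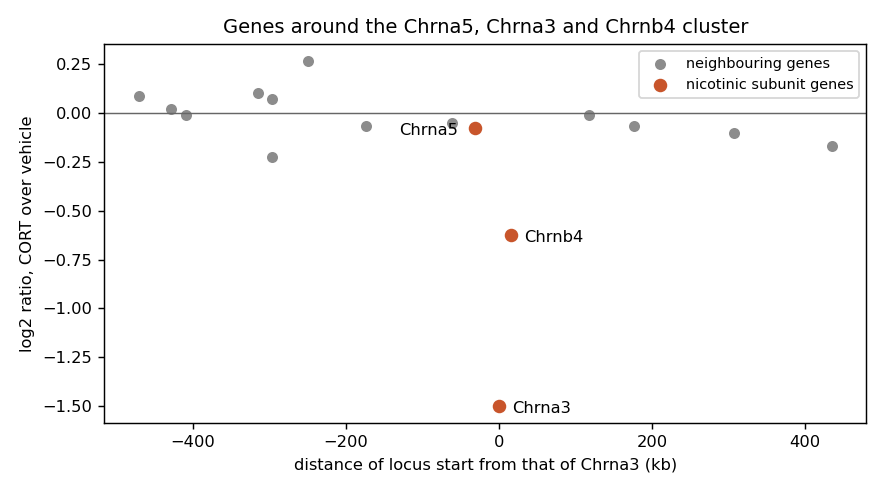
Log2 ratio of CORT over vehicle (pseudocount 1 FPKM) for each transcript row within 500 kb of Chrna3, against the distance in kb between locus starts. Chrna3 at -1.50 and Chrnb4 at -0.62 stand below the 13 neighbouring rows, which lie between -0.22 and 0.27, and Chrna5 lies among these at -0.07.

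Chrna3 and Chrnb4 are typical of the medial habenula, which lies close to the hippocampus, so markers of neighbouring tissues are given beside them. In bulk tissue, fewer cells of a type and less RNA per cell cannot be told apart. Over all rows, 2.25% were higher and 2.35% lower, and among rows with a mean under 5 FPKM 3.96% and 4.56%. The marker lists were written with earlier results of these data known, so nothing is read from counts of their rows. Of 12 medial habenula markers, 8 had a row, and 2 of their 10 rows were lower and 0 higher. Gpr151, a habenular orphan receptor, was at 3.24 FPKM with vehicle and 0.573 with CORT, a log2 ratio of -1.43. Slc5a7, the choline transporter of cholinergic neurons, was at 1.10 and 0.353 FPKM, a log2 ratio of -0.63. These 2 rows were the only ones of the list past 1.5-fold.

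The other habenular markers had ratios nearer to 0, in both directions. Those of Tac3 (0.06) and Etv1 (rows at 0.02 and 0.33) were above 0. Those of Nwd2 (-0.02), Calb2 (-0.19), Lrrc55 (-0.37) and Tac1 (rows at -0.08 and -0.38) were below 0. The summed level of all rows of the list was 95.1 FPKM with vehicle and 89.8 with CORT, and the median log2 ratio was -0.13. Tac1, the substance P precursor, had rows of 6.06 and 1.95 FPKM with vehicle and 5.68 and 1.27 FPKM with CORT. Calb2, another marker of the list, is also expressed by hippocampal interneurons. Pou4f1, Chat, Slc18a3 and Irx2, among them the defining genes of habenular and cholinergic neurons, had no row, so no value can be given for them.

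Of the 9 rows of 8 thalamic markers, 4 were lower and 1 was higher, with a median log2 ratio of -0.53 and a summed level of 53.2 FPKM with vehicle and 35.3 with CORT. Slc17a6, the vesicular glutamate transporter of thalamic and habenular neurons, was at 9.0 and 5.56 FPKM, a log2 ratio of -0.61. Tcf7l2, a thalamic and habenular transcription factor gene, was at 5.22 and 2.59 FPKM (-0.79), and Zic1, a zinc finger transcription factor gene, at 11.7 and 6.26 FPKM (-0.80). One row of Prkcd, a protein kinase C gene of thalamic relay neurons, was at 10.7 and 4.53 FPKM (-1.08), and the other at 0.184 and 1.60 FPKM (1.13). The other markers of the list were within 1.5-fold, Lef1 (-0.53) and Ntng1 (-0.12) below 0, and Lhx9 (0.01) and Rora (0.30) above 0.

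Pineal cells are also known to carry alpha3 and beta4 receptors. Of 10 pineal markers, 2 had a row and both were lower, with a summed level of 8.17 FPKM with vehicle and 0.409 with CORT. Tph1, the pineal tryptophan hydroxylase, was at 5.17 FPKM with vehicle and 0.102 with CORT, a log2 ratio of -2.49. Gnat2, a cone transducin gene, was at 3.00 and 0.307 FPKM (-1.61). Of the 4 meningeal rows, 3 were lower. These were the collagen gene Col1a1 (-0.96), the retinoic acid synthesis gene Aldh1a2 (-1.23) and the GABA transporter gene Slc6a13 (-1.03). The other meningeal row, of Dcn, was the most abundant of the list in both groups and had a log2 ratio of 0.09. The list summed to 43.8 FPKM with vehicle and 30.3 with CORT. The part of these tissues in the values of Chrna3 and Chrnb4 was not tested.

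Of 8 markers of hippocampal neurons, 5 had a row, and Fibcd1, Spink8 and Neurod2 had none. The 5 rows summed to 839 FPKM with vehicle and 911 with CORT, with 0 rows past 1.5-fold and a median log2 ratio of 0.10. Most of both sums was Camk2a, at 593 and 667 FPKM. Prox1 was at 10.9 and 8.96 FPKM (-0.25), and Zbtb20 at only 1.55 and 2.72 FPKM (0.55). The 7 rows of interneuron markers had a median of 0.26 and 0 rows past 1.5-fold. There were also 0 such rows for choroid plexus (median -0.05) and oligodendrocytes (median -0.20). Of the 6 microglial rows (median -0.18), 1 was higher, that of Tmem119, a microglial membrane protein, at 5.72 FPKM with vehicle and 11.2 with CORT. The other 5, of Aif1, Cx3cr1 and Csf1r, had log2 ratios between -0.53 and -0.03.

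**Figure D3:**
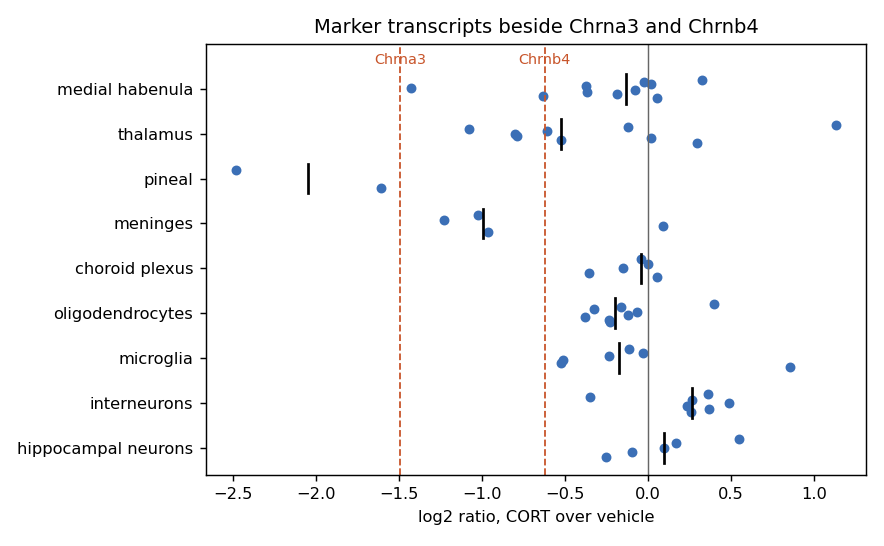
Log2 ratio of CORT over vehicle (pseudocount 1 FPKM) for each marker transcript row, by tissue or cell type, with a black bar at the median of each list and dashed lines at Chrna3 (-1.50) and Chrnb4 (-0.62). Both pineal rows lie below Chrna3. The median is -0.13 for the medial habenula, -0.53 for the thalamus and 0.10 for hippocampal neurons.

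With FPKM summed per gene, the subunits of the main forebrain receptors were the more abundant nicotinic transcripts in both groups. Chrnb2, which encodes the beta2 subunit (chr2:189088569-189096785), was at 14.7 FPKM with vehicle and 16.7 with CORT, a log2 ratio of 0.17. Chrna7, the alpha7 subunit of homomeric receptors (chr1:123899656-124039196), has 2 transcript rows. The main one, ENSRNOT00000082487.1, was at 9.72 and 11.1 FPKM, also a log2 ratio of 0.17. The other, ENSRNOT00000051883.4, was at 0.492 and 1.06 FPKM, a log2 ratio of 0.46 that was just short of 1.5-fold and stood at 1.11 without a pseudocount. That row made up 4.82% of the summed Chrna7 FPKM with vehicle and 8.71% with CORT.

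Chrna4, the alpha4 subunit that pairs with beta2 (chr3:176530559-176548064), also has 2 rows. ENSRNOT00000084339.1 was at 3.28 FPKM with vehicle and 3.52 with CORT, a log2 ratio of 0.08. ENSRNOT00000009041.6 was at 1.04 and 2.12 FPKM, a log2 ratio of 0.61, and was counted as higher. Its share of the summed Chrna4 FPKM was 24.1% with vehicle and 37.6% with CORT. Both rows have the same locus, and the division of reads between such transcripts is an estimate of the authors' software. Summed over both rows, Chrna4 was at 4.32 and 5.64 FPKM, a log2 ratio of 0.32 that did not pass 1.5-fold.

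The 6 nicotinic genes summed to 34.8 FPKM with vehicle and 36.3 with CORT. Chrna3 and Chrnb4 together were 13.6% of that sum with vehicle and 2.97% with CORT. The other 4 genes summed to 30.0 FPKM with vehicle and 35.2 with CORT. Chrnb2 alone was 42.3% and 46.1% of the family, and Chrna7 was 29.4% and 33.5%. FPKM is scaled by transcript length, so these shares compare transcripts and not receptors.

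**Figure D4:**
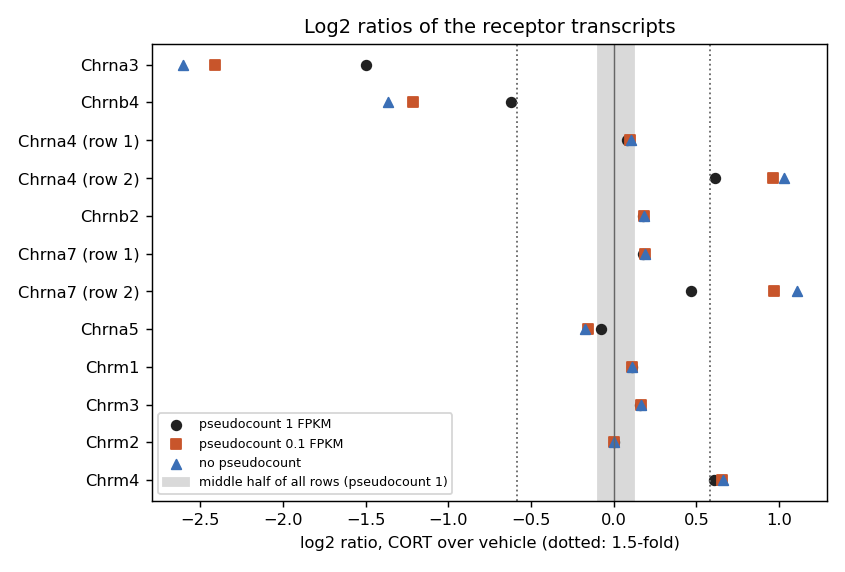
Log2 ratio of CORT over vehicle for the 12 receptor rows with a pseudocount of 1 FPKM (circles), 0.1 FPKM (squares) and none (triangles); the grey band is the interquartile range of all rows and dotted lines mark 1.5-fold. The low rows, Chrna3, Chrnb4 and the second rows of Chrna4 and Chrna7, spread with the pseudocount, whereas the symbols of Chrm1, Chrm2, Chrm3, Chrm4 and Chrnb2 nearly coincide.

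Chrm1 encodes M1, the main postsynaptic muscarinic receptor of pyramidal cells, and was the most abundant member. It lies at chr1:224882438-224884205 of rn6 and was at 49.5 FPKM with vehicle and 53.5 with CORT, a log2 ratio of 0.11. Chrm3, the M3 receptor (chr17:63990598-63994169), was at 21.2 and 23.7 FPKM, a log2 ratio of 0.16. The ratio of Chrm1 to Chrm3 FPKM was 2.33 with vehicle and 2.25 with CORT, so the proportion of these transcripts of Gq/11-coupled receptors was nearly the same.

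Chrm4 encodes the inhibitory M4 receptor (chr3:80833271-80842916) and had the largest difference in FPKM of any member. It was at 8.81 FPKM with vehicle and 13.9 with CORT, a log2 ratio of 0.61, just past 1.5-fold. Its value depended little on the pseudocount, with a log2 ratio of 0.66 without one. Chrm2, the M2 receptor known as an autoreceptor on cholinergic terminals (chr4:64088899-64091090), was at 1.24 FPKM in both groups, a log2 ratio of 0.0014. The level of Chrm4 was 7.13 times that of Chrm2 with vehicle and 11.3 times with CORT.

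The 4 muscarinic genes summed to 80.7 FPKM with vehicle and 92.4 with CORT. The Gi/o-coupled Chrm2 and Chrm4 were 12.4% of that sum with vehicle and 16.4% with CORT. The table's loci of Chrm1, Chrm2 and Chrm3 span only 1767, 2191 and 3571 bases, so their FPKM rest on short gene models.

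By summed FPKM per gene, the order with vehicle was Chrm1, Chrm3, Chrnb2, Chrna7, Chrm4, Chrna4, Chrna3, Chrnb4, Chrm2 and Chrna5. With CORT the first 3 kept their places, Chrm4 stood above Chrna7, and Chrm2, Chrna5, Chrna3 and Chrnb4 followed Chrna4. Chrna3 thus went from place 7 to 9 and Chrnb4 from 8 to 10. With no spread over rats used, it cannot be said which neighbours in these orders differ. Over the 12 member rows the median log2 ratio was 0.13, and over all rows it was 0.02, with an interquartile range from -0.10 to 0.12.

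Other genes of cholinergic signalling were described by a list of 36 symbols, of which 22 had a row. Of their 35 rows, 2 were higher and 2 lower, with a median log2 ratio of 0.15. Over all rows, 2.25% were higher and 2.35% lower, and among rows with a mean under 5 FPKM 3.96% and 4.56%. The list was written with earlier results of these data known. Nothing is therefore read from this count or from the counts of its parts below. Of the other receptor genes, Chrna2 and Chrm5 had a row each, both with a log2 ratio of 0.19. Chrna2, the alpha2 subunit, was at 3.49 FPKM with vehicle and 4.10 with CORT, and Chrm5, the M5 receptor, was at 1.46 and 1.80 FPKM.

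Among genes of acetylcholine synthesis, transport and breakdown, 2 of 6 rows were lower. These were Slc5a7, which the habenular list also holds, and Prima1, the membrane anchor of acetylcholinesterase, which was at 6.45 FPKM with vehicle and 3.95 with CORT (-0.59). Among receptor partners, 1 of 12 rows was higher, a minor row of Lynx1, a membrane-anchored modulator of nicotinic receptors, at 1.61 and 3.21 FPKM (0.69). The main Lynx1 row was at 83.6 and 88.7 FPKM (0.08). Among genes of muscarinic signalling, 1 of 15 rows was higher, a minor row of the M-current channel gene Kcnq5 at 0.375 and 1.90 FPKM (1.08), while its main row was at 23.6 FPKM in both groups.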

How the data were processed

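Hippocampal RNA of 8 ADX rats, 4 per group, was sequenced as stranded total RNA. The authors aligned the reads to rn6 and compared the groups with Tophat2, Cufflinks and CuffDiff, using geometric normalization, pooled dispersion and corrections for multi-mapping reads, sequence bias and transcript length, and removed transcripts with too few alignments. The submitters' processing notes name CASAVA 1.8.2, TopHat2 2.0.10 and Cuffdiff 2.2.0. The deposited table holds 1 FPKM value per group for each Ensembl transcript. Its columns of fold change, test statistic, p-value and q-value are the authors' own comparison and were not used.

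Log2 ratios of CORT over vehicle were computed with a pseudocount of 1 FPKM, which understates differences of low transcripts. A row past 1.5-fold was counted as higher or lower. All rows of each member were given. Other genes were named when a row of the cholinergic or marker lists was past 1.5-fold or the gene defines a list. Psma4, Ube2q2, Chrna2, Chrm5, the genes named without values and the other list members within 1.5-fold were chosen after the values were seen. The members and lists were chosen with earlier results of these data known. Counting was tested on simulated data in which only rows of higher level were changed, by a large factor. That checks the counting alone and no call of a low row or of one near 1.5-fold. The median FPKM over all rows was 9.22 with vehicle and 9.38 with CORT. Alternatives were pseudocounts of 0.1 FPKM and none, summed transcripts, centring, a filter of 1 FPKM and a 2-fold limit. Python 3.11.15, numpy 2.4.6, pandas 2.3.3 and matplotlib 3.10.9 were used.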

Additional observations from a re-analysis of the deposited data

How the results depend on the processing

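Chrna3 was past 1.5-fold lower under every alternative run, and Chrnb4 under all but the filter of a mean of at least 1 FPKM, which removed it and left 1 member row lower, and the 2-fold limit, which left 1 lower (Chrna3) and 0 higher. With the FPKM of a symbol's rows summed, 1 member was higher, Chrm4, and Chrna4 was not. With a pseudocount of 0.1 FPKM or none, 3 rows were higher, the second row of Chrna7 being added. Over all rows, 366 were higher and 383 lower, against 648 and 750 with a pseudocount of 0.1 FPKM, 685 and 798 with none, 133 and 225 of 13272 symbols when summed, and 136 and 87 at 2-fold. With the filter of 1 FPKM, 304 of 15434 rows were higher (1.97%) and 312 lower (2.02%). When centred, 339 of 16266 rows were higher and 415 lower, and 2 member rows were higher and 2 lower. A log2 ratio was taken as moved when it differed by at least 0.1, since there is no replicate spread. It moved for 4 of 12 rows with each other pseudocount, for 1 of 10 genes when summed and for 0 rows when centred on the median of 0.02. Centring left Chrm4 at 0.586, barely past the limit of 0.585, and the second row of Chrna4 at 0.594. No row past 1.5-fold changed sign, whereas Chrm2, near 0, went from 0.0014 to -0.02 when centred. Leaving out each rat in turn was not run, because the values are 1 per group. No paired analysis was possible because each group has a single value. No depth per rat is given, so no detection limit can be set for the low rows.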
